A study of Mus musculus with 14 samples.

Results

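Mitochondrial ribosomal proteins are the proteins of the ribosome that works inside mitochondria. They were taken as all genes whose mouse symbol begins with Mrpl (large subunit) or Mrps (small subunit) followed by a number, pseudogenes left out. The rule gave 77 of the 35275 genes in the table, 48 of the large and 29 of the small subunit. Of these, 76 passed the filter on low values (47 large and 29 small). Mrpl53 was the other one, and it was listed at 0 in every library; its exons share 695 bases on the same strand with those of Gm42688. Mrpl33 was not analysed here.

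The libraries came from brown adipose tissue of 14 C57BL/6 mice aged 8 weeks, each library from a separate animal. All animals carried floxed Lrpprc alleles (LrpprcFF). The knockouts also carried a Ucp1-Cre transgene, which removes Lrpprc only in cells that express Ucp1, and the controls had no Cre. Animals lived at 22 °C (4 controls, 4 knockouts) or at thermoneutrality, 30 °C (3 controls, 3 knockouts). The labels call the cells brown adipocytes, but the protocol homogenized tissue. A lower value of a gene in such bulk samples can mean fewer cells that express it or less RNA per cell, and these cannot be told apart. Lrpprc encodes an RNA-binding protein that keeps mitochondrial messenger RNAs stable.

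The mitochondrial ribosome translates the few proteins encoded in mitochondrial DNA, all of them subunits of the respiratory chain or of ATP synthase. Its ribosomal RNAs come from mitochondrial DNA, while every one of its proteins is encoded in the nucleus, made in the cytosol and imported. The small subunit binds messenger RNA and reads the codons. The large subunit joins the amino acids and releases the growing chain through an exit tunnel that faces the inner membrane. Brown fat is rich in mitochondria, and cold raises the demand on its respiratory chain. Symbols do not always give the place in the ribosome: structures put the proteins of Mrps30 and Mrps18a in the large subunit, and the protein of Mrps36 is now known as a subunit of the 2-oxoglutarate dehydrogenase complex.

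The depth was 15922433 to 21319569 fragments per library. For each of the 76 tested genes it gave whole read numbers in all 14 libraries (within 0.05 reads), from 164 to 3430 reads with a median of 955. Counting error alone was therefore 1.71 to 7.81% (median 3.24%), and the spread between animals was larger: the median coefficient of variation was 11.2% in 22 °C controls and 5.99% in 30 °C controls. The label check was clear. Lrpprc was at 23.2 to 47.1 FPKM (fragments per kilobase of transcript, relative to depth) in the 4 controls at 22 °C and at 9.34 to 12.5 in the 4 knockouts; at 30 °C it was at 28.6 to 31.0 and 5.95 to 9.91. Of the 8 brown adipocyte markers checked, Ucp1 and Adipoq among them, none was at 0 in any group. Their summed FPKM was 14585 to 18368 in controls and 14328 to 18663 in knockouts at 22 °C, and 10787 to 13486 and 6863 to 9157 at 30 °C. Skeletal muscle markers, 8 genes, varied most, with sums of 19.8 to 12067 FPKM among the 3 controls at 30 °C.

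The 5 genes called lower in the knockouts at both temperatures were Mrpl11, Mrpl18, Mrpl22, Mrpl51 and Mrps21. Joint regulation was not tested, and the bases upstream of their start sites are shown only because all 5 were called in both comparisons. They are the 250 bases before the start in RefSeq (GRCm38.p6), 5′ to 3′ in the direction of the gene, with matches to the motifs named below in capitals.
Mrpl11, chr19:4962056-4962305, plus strand: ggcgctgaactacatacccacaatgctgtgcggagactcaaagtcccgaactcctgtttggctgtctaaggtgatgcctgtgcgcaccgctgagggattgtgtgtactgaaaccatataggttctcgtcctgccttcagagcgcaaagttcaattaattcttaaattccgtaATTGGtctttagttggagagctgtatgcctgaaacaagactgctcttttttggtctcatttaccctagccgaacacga
Mrpl18, chr17:12916092-12916341, minus strand: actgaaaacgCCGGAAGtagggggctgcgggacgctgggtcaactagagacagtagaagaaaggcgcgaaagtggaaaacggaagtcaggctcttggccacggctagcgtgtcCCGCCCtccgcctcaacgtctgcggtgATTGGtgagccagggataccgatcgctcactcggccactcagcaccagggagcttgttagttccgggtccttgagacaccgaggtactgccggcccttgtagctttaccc
Mrpl22, chr11:58171414-58171663, plus strand: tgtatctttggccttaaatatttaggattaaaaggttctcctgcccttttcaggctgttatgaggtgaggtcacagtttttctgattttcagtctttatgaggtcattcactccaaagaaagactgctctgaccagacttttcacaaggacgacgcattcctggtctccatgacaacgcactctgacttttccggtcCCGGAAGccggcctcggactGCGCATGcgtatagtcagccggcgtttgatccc
Mrpl51, chr6:125191950-125192199, plus strand: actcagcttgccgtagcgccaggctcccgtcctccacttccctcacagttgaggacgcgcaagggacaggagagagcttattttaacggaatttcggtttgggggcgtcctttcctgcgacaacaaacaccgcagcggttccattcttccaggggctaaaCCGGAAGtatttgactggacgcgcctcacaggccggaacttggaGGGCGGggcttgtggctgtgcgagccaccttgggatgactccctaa
Mrps21, chr3:95871515-95871764, minus strand: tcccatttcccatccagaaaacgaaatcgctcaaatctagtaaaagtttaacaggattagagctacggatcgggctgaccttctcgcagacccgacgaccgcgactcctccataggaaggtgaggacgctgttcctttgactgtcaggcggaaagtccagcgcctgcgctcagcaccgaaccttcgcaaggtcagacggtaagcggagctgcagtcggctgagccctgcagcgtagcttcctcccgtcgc

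The motifs were the ETS motif CCGGAAG (read by GABP among others), the core GCGCATG of the NRF1 motif, the YY1 motif AAGATGG, the GC box GGGCGG (SP1) and the CCAAT box, each on both strands; none of these 5 strings contains another. NRF1 and GABP are known regulators of nuclear genes for mitochondrial proteins. Promoter windows of 300 bases (the same 250 and 50 after the start) were found for 68 of the 77 symbols, 74 windows in all. The ETS motif was in 25 of the 74 windows (33.8%), against 8.86% of all 32851 promoter windows of that length. It was in 14 of 47 windows of the large and 11 of 27 of the small subunit. For comparison it was in 26 of 73 windows of cytosolic ribosomal proteins and in 4 of 35 of nuclear complex I subunits. The NRF1 core was in 7 of 74 windows (9.46%, all promoters 3.91%), 6 of them of the large subunit. The YY1 motif was in 13 (17.6%, all promoters 6.34%), the GC box in 39 (52.7%, all promoters 35.7%) and the CCAAT box in 29 (39.2%, all promoters 37.4%). The windows were also richer in G and C, with a median of 58.8% against 52.7%. The ETS motif was in 9 of 33 windows of genes called lower in the 30 °C knockouts and in 16 of 41 windows of the other members, a lower share in the genes that were called. The YY1 motif (4 of 33 and 9 of 41) and the GC box (15 of 33 and 24 of 41) also had a lower share there, and the CCAAT box (15 of 33 and 14 of 41) and the NRF1 core (4 of 33 and 3 of 41) a higher one. Of the 5 genes shown, Mrpl18, Mrpl22 and Mrpl51 have the ETS motif upstream. Mrps21 has the ETS motif 18 bases after the start on the opposite strand. Mrpl11 has no ETS match in its window, and its only match is to the CCAAT box.

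In 22 °C controls the genes of both subunits spanned a wide range of levels. On the deposited FPKM scale, which is per length, the highest was Mrpl42 at 228 ± 28.2 (SD, n = 4) and the lowest Mrpl19 at 5.67 ± 0.168, a ratio of 40.2. The median was 34.4 FPKM over the 47 large subunit genes and 25.0 over the 29 small subunit genes. The large subunit was led by Mrpl42, Mrpl34 (215 ± 10.9), Mrpl30 (135 ± 23.4), Mrpl2 (119 ± 21.4) and Mrpl4 (88.0 ± 1.64). The first 2 of these did not differ beyond their spread. The small subunit was led by Mrps21 (162 ± 28.0) and Mrps36 (149 ± 19.0), which did not differ beyond their spread either, then Mrps16, Mrps24 and Mrps15. At the low end were Mrpl1, Mrpl47, Mrpl13 and Mrpl35 beside Mrpl19, and Mrps22, Mrps25, Mrps26, Mrps10 and Mrps18b.

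Opposite-strand neighbours share exon bases with several of these genes: Ndufb5 shares 616 bases with Mrpl47, Nr2c2 4590 with Mrps25, Gcfc2 1962 with Mrpl19 and Tcp1 141 with Mrpl18. On the same strand Urgcp shares 226 bases with Mrps24, Slc5a3 159 with Mrps6 and Nme3 763 with Mrps34. Whether the counting used strand is not given in the sources used here, so reads of such pairs may be mixed.

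**Figure D1:**
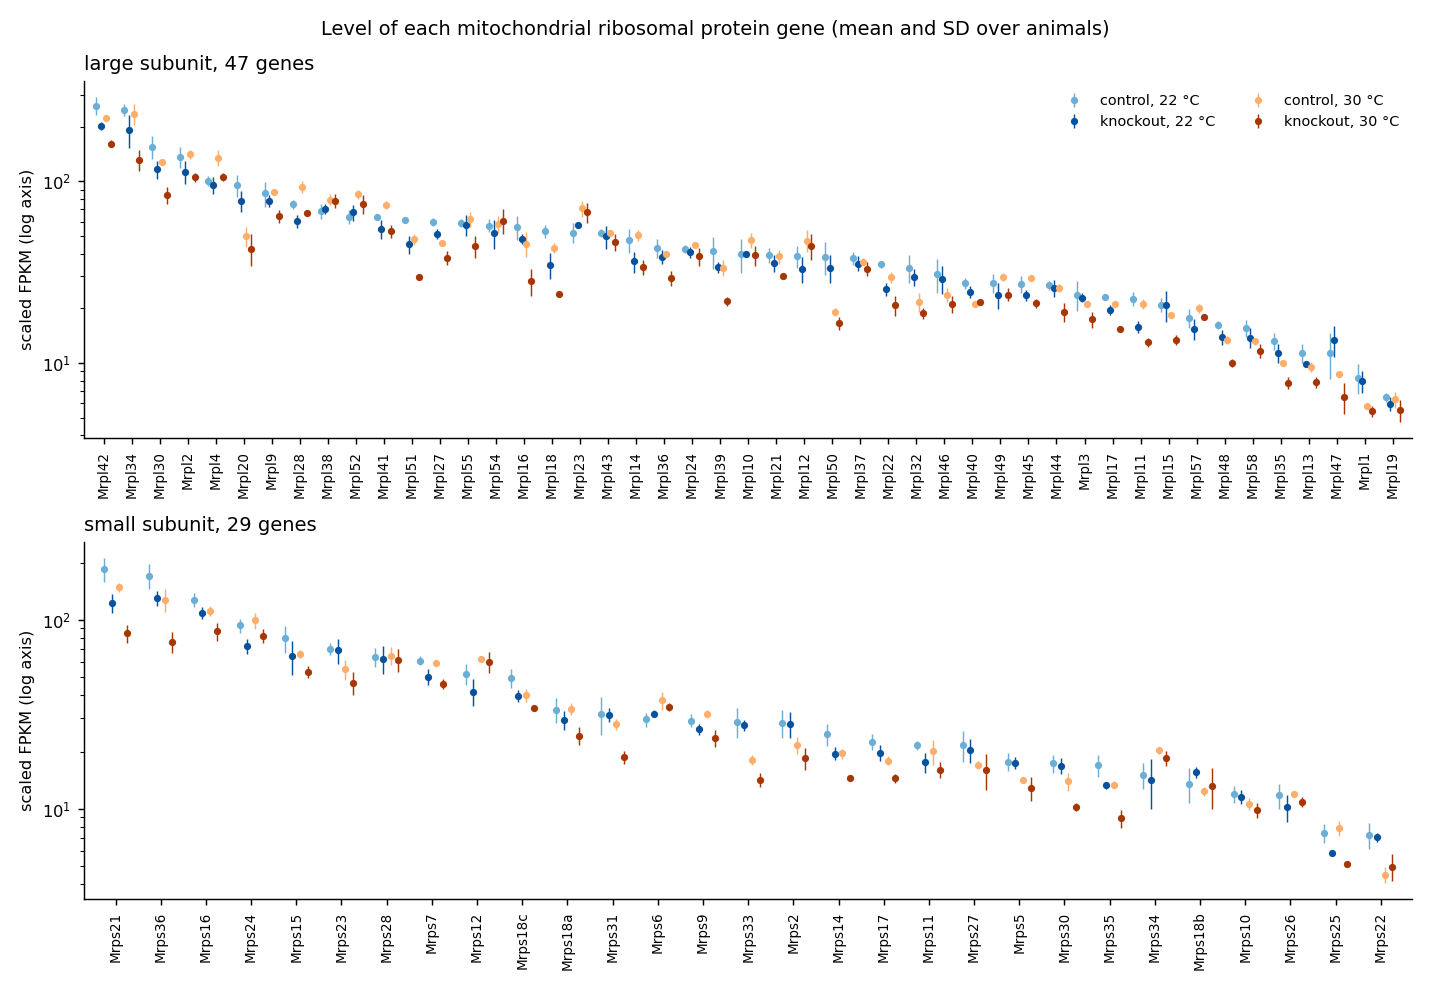
Scaled FPKM (log axis) of the 47 large subunit genes and 29 small subunit genes that passed the filter, ordered by their level in 22 °C controls; points are group means and bars the SD over 3 or 4 animals. The dark brown points (30 °C knockouts) lie below the orange points (30 °C controls) for most genes.

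Libraries were put on one scale before genotypes were compared, and the direction of the result depends on that step. Each library was multiplied by a factor that sets the median gene equal (median ratio over 10049 genes); factors were 1.06 to 1.22 in controls and 0.835 to 0.955 in knockouts. On the deposited FPKM scale the median of all 13079 genes tested was 0.24 higher in knockouts at 22 °C and 0.31 higher at 30 °C (log2). When libraries were set to equal sums over nuclear genes, it was 0.12 and 0.19 higher. The members' values below are on the median-ratio scale unless another is named. The ratio of small to large subunit within a library needs no scaling.

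The summed scaled FPKM of the large subunit was 2720, 2547, 2435 and 2573 in the 4 controls at 22 °C and 2351, 2015, 2313 and 2133 in the 4 knockouts. At 30 °C it was 2368, 2634 and 2384 in controls and 1775, 1840 and 2002 in knockouts. All knockouts lay under all controls of their temperature. The small subunit did the same: the knockouts summed to 1018 to 1200.5 against 1229 to 1413 in controls at 22 °C, and to 880.1 to 964 against 1142 to 1267 at 30 °C. With the same total, the large subunit sums overlapped between genotypes at 22 °C (2293 to 2498 in controls, 2206 to 2397 in knockouts) and not at 30 °C (2262 to 2455 and 1794 to 2125). On the deposited scale the genotypes overlapped at both temperatures. The whole family then summed to 3251 to 3658 FPKM in controls and 3379 to 3889 in knockouts at 22 °C, and to 3307 to 3622 and 2959 to 3431 at 30 °C.

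The 2 subunits kept nearly the same proportion in every animal. The summed FPKM of the small subunit divided by that of the large was 0.519, 0.515, 0.505 and 0.549 in the 22 °C controls and 0.505 to 0.513 in the 22 °C knockouts. It was 0.481 to 0.482 in the 30 °C controls and 0.496, 0.497 and 0.482 in the 30 °C knockouts. Knockouts and controls overlapped at both temperatures. All 8 animals at 22 °C lay above all 6 at 30 °C. With Mrps18a and Mrps30 counted in the large subunit and Mrps36 left out, this held in controls (0.414 to 0.455 against 0.400 to 0.408) and not in knockouts (0.415 to 0.429 against 0.419 to 0.429). Counted so, every knockout at 30 °C lay above every control there, while the genotypes still overlapped at 22 °C. The mean log2 value of the small subunit minus that of the large was −0.32 ± 0.030 (SD, n = 4), −0.31 ± 0.019 (n = 4), −0.37 ± 0.0097 (n = 3) and −0.32 ± 0.015 (n = 3) in the same order of groups. By this measure, which weighs every gene alike, the 22 °C and 30 °C knockouts overlapped while the 22 °C controls lay above the 30 °C controls. The 3 knockouts at 30 °C also lay above the 3 controls there.

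**Figure D2:**
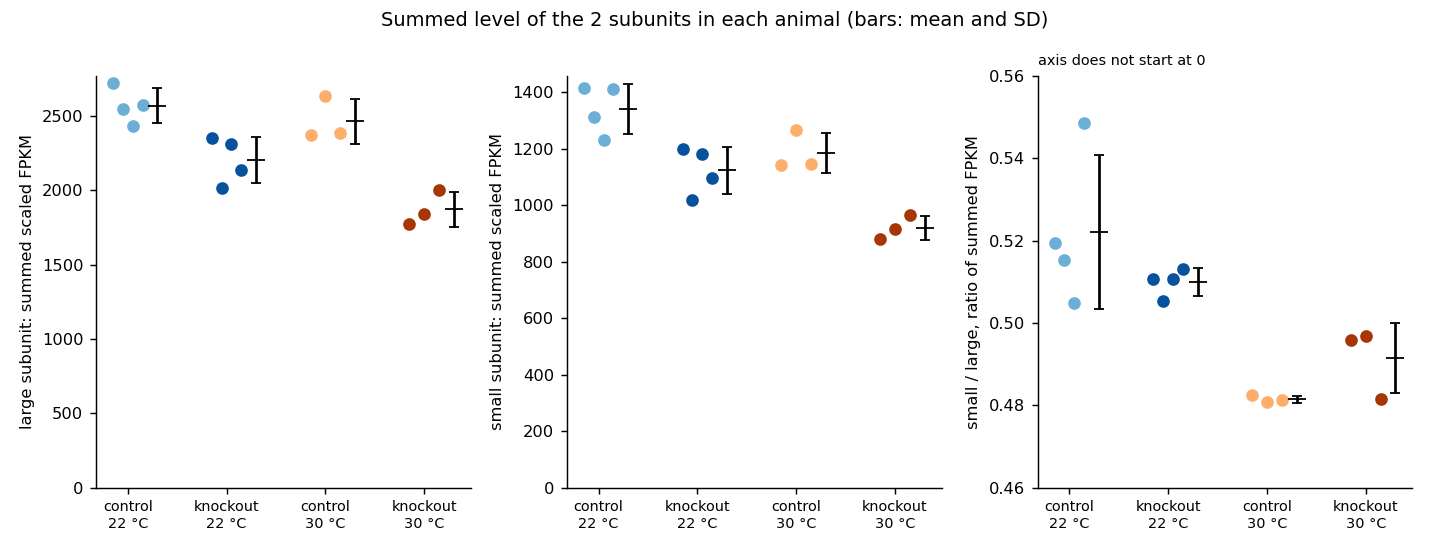
Summed scaled FPKM of the large and the small subunit and the ratio of their deposited FPKM sums in each of the 14 animals, by group; black bars are the mean and SD, and the axis of the ratio starts at 0.46. Both sums are lower in every knockout than in any control of the same temperature, and the ratio stays between 0.481 and 0.549.

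The members were set beside 2 other families. The family's summed FPKM was 22.8 to 25.9% of that of the 36 nuclear genes for complex I, the first enzyme of the respiratory chain, in 22 °C controls and 27.5 to 28.6% in 22 °C knockouts. At 30 °C the shares were 25.7 to 27.0% and 29.3 to 36.2%, so at both temperatures every knockout lay above every control. Against the 82 cytosolic ribosomal protein genes the shares were 19.2% ± 3.16 (SD, n = 4) in controls and 17.3% ± 0.689 (n = 4) in knockouts at 22 °C. At 30 °C they were 13.3% ± 0.647 (n = 3) and 11.5% ± 1.95 (n = 3), and the genotypes overlapped at both temperatures. At 22 °C only control 4 (15.3%) lay below the highest knockout (17.8%), and the other controls were at 21.8, 21.8 and 18.0%. Controls 3 and 4 at 22 °C have identifiers that begin with R. The shares against both families need no scaling.

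At 22 °C 5 members were called lower in knockouts (limma, adjusted p under 0.05) and 0 higher. Over all genes tested 1.06% were called lower and 0.91% higher. The lower ones were Mrpl18, Mrpl11, Mrpl51 and Mrpl22 of the large subunit and Mrps21 of the small. The median log2 difference was −0.18 over the large subunit and −0.18 over the small, beside 0.00 over all genes; 42 of 47 and 26 of 29 values were negative. Without overlap between the groups, 16 members were lower (10 large, 6 small) and 0 higher, where 4.53% of all genes were lower and 4.85% higher in this way. On the deposited scale the direction turned, with 7 large and 5 small subunit genes higher (24.8% of all genes) and 2 large subunit genes lower (0.619% of all genes). Macrophage markers, 8 genes, summed to 59.9 to 173 FPKM in these knockouts and to 32.3 to 45.8 in the controls. Their median log2 difference was 0.55, and 0 of 8 were called. Of the brown adipocyte markers 1 was called higher and 1 lower. Their part in the result was not tested.

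Mrpl18 encodes a protein of the central protuberance, where the large subunit meets the small. Its scaled FPKM was 55.6, 51.5, 47.9 and 57.5 in the 22 °C controls and 29.3, 30.9, 36.5 and 42.1 in the knockouts. The groups did not overlap, and the log2 difference was −0.61 (SE 0.11, limma adjusted p = 0.0148). At 30 °C it was 40.5, 45.6 and 43.2 in controls and 23.0, 24.1 and 24.6 in knockouts, again without overlap. That log2 difference was −0.82 (SE 0.13, limma adjusted p = 0.00193).

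Mrps21, one of the small subunit genes with the highest FPKM in 22 °C controls, was at 188, 169, 161 and 221 scaled FPKM in the 22 °C controls and at 134, 103, 131 and 125 in the knockouts. Every knockout was under every control, with a log2 difference of −0.58 (SE 0.12, limma adjusted p = 0.0287). At 30 °C the controls were at 149, 157 and 139 and the knockouts at 92.4, 74.3 and 86.8. The difference there was −0.81 (SE 0.14, limma adjusted p = 0.00335), again without overlap.

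Mrpl11 belongs to the base of the stalk, to which translation factors bind. It was at 20.8 to 24.7 scaled FPKM in 22 °C controls and 14.6 to 17.1 in knockouts, and at 19.9 to 22.5 and 12.1 to 13.5 at 30 °C. The log2 differences were −0.48 (SE 0.087, limma adjusted p = 0.0151) and −0.66 (SE 0.10, limma adjusted p = 0.00181). Mrpl51, a protein found only in mitochondrial ribosomes, was at 59.1 to 62.2 and 37.7 to 49.6 at 22 °C and at 45.2 to 51.9 and 28.7 to 31.0 at 30 °C. Its differences were −0.44 (limma adjusted p = 0.0268) and −0.67 (limma adjusted p = 0.00193). Mrpl22 lines the exit tunnel. It was at 33.7 to 37.2 and 22.8 to 27.2 at 22 °C and at 27.9 to 31.9 and 17.9 to 22.8 at 30 °C, with differences of −0.44 (limma adjusted p = 0.0323) and −0.49 (limma adjusted p = 0.0105). None of the 5 genes overlapped between genotypes at either temperature.

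The 22 °C calls depended on single libraries and on the scaling. Without 1 animal at a time the count of 5 became 0 to 7: it was 0 without knockout 2 and 2 without control 1, control 2, control 4 or knockout 1. In a fit to the 8 animals at 22 °C alone it was 0; an unadjusted p under 0.05 was found for 19 of 76 members in that fit and for 27 of 76 in the fit to all animals. On the deposited scale the split turned to 6 higher and 1 lower, the higher ones Mrpl23, Mrpl38, Mrpl47, Mrpl52, Mrps6 and Mrps18b and the lower one Mrpl18; 3167 of all genes were called higher and 81 lower on that scale. No member was called in opposite directions under different scalings. Relative to the median of all genes, the median member was lower by each scaling: −0.18 (median ratio), −0.15 (quantile), −0.16 (same total) and −0.13 (as deposited).

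At 30 °C 30 members were called lower in knockouts, 19 of 47 of the large and 11 of 29 of the small subunit, and 0 higher. Over all genes tested 5.28% were called lower and 8.82% higher. The median log2 difference was −0.35 over the large and −0.29 over the small subunit, beside 0.06 over all genes. It was negative for 45 of 47 and 27 of 29. In 32 of 47 large and 17 of 29 small subunit genes all 3 knockouts lay under all 3 controls, and in 0 above, where 14.6% of all genes were lower and 22.2% higher without overlap. As deposited, 14 large and 5 small subunit genes were lower in this way (4.29% of all genes) and 5 large and 3 small higher (50.0% of all genes).

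Markers of other cells moved with this comparison. Macrophage markers summed to 73.3 to 269.9 FPKM in the 30 °C controls and to 508 to 1471 in the knockouts (7 of 8 called higher), and fibroblast markers to 176 to 211 and 446 to 837 (4 of 4 called higher). Of the brown adipocyte markers 5 of 8 were called lower. Muscle markers summed to 2270 to 8961 FPKM in the knockouts, within the range of the controls. The part of these cells in the result was not tested.

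Mrpl34, among the smallest ribosomal proteins, was at 209, 269.6 and 227 scaled FPKM in the 30 °C controls and at 112, 137 and 144 in the knockouts. No knockout reached a control, and its log2 difference of −0.84 (SE 0.17, limma adjusted p = 0.00684) was the lowest of the family. At 22 °C its groups overlapped, with 226 to 272 in controls and 154 to 234 in knockouts (log2 difference −0.38, limma adjusted p = 0.212). Mrps36, whose protein serves the 2-oxoglutarate dehydrogenase complex, was at 108, 143 and 130.1 in controls and at 69.4, 87.5 and 71.4 in knockouts at 30 °C. All knockouts were lower (log2 difference −0.73, SE 0.15, limma adjusted p = 0.00834).

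Other large subunit genes called lower at 30 °C were Mrpl16 (−0.67, a conserved protein near the tRNA sites), Mrpl30 (−0.59), Mrpl14 (−0.57), Mrpl28 (−0.47), Mrpl42 (−0.46), Mrpl45 (−0.44), Mrpl17 (−0.43) and Mrpl44 (−0.43), in log2. Mrpl45 attaches the ribosome to the inner membrane at the exit of the tunnel. Mrpl44 is a gene of human mitochondrial disease. In the small subunit Mrps31 (−0.55), Mrps35 (−0.55), Mrps25 (−0.54), Mrps14 (−0.41), Mrps16 (−0.37, a human disease gene) and Mrps7 (−0.36) were called lower. Mrps30 (−0.41) and Mrps18a (−0.46), whose proteins sit in the large subunit, were called too.

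Of the 3 paralogs of the Mrps18 family 1 was called. Mrps18a was at 32.0 to 36.6 scaled FPKM in 30 °C controls and 21.9 to 27.2 in knockouts. Its call was kept in 0 of 6 fits that left out 1 animal (limma adjusted p from 0.0570 to 0.154). It was kept under 1 of 3 other scalings. Mrps18b was at 11.7 to 13.1 and 10.6 to 16.8, with overlap, and had a log2 difference of 0.06 (limma adjusted p = 0.869). Mrps18c was at 37.5 to 43.5 and 33.9 to 34.8, without overlap, and missed the call (−0.21, limma adjusted p = 0.231). Whether the 3 differences differ from each other was not tested.

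The 16 members that did not overlap at 22 °C did not overlap at 30 °C either: the 5 called in both, Mrpl14, Mrpl17, Mrpl27, Mrpl28, Mrpl30, Mrpl42, Mrps7, Mrps14, Mrps18c, Mrps24 and Mrps25. Of all 76 members, 21 were called in none of the comparisons by genotype or temperature, Mrps24 among them. For these 16 and 21 members the matching shares of all genes are not given here. Neither count can therefore be read as particular to the family.

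Several members of known function were not called in either knockout comparison. The stalk protein Mrpl12 had log2 differences of −0.22 and −0.09 at 22 and 30 °C, and Mrpl10, which anchors it, 0.03 and −0.28. Mrpl58, a peptidyl-tRNA hydrolase that frees stalled ribosomes, had −0.17 and −0.16. The tunnel proteins Mrpl23 and Mrpl24 had 0.14 and −0.07, and −0.05 and −0.21. Mrps12, at the decoding site, had −0.31 and −0.06, and Mrps27, an RNA-binding pentatricopeptide repeat protein, −0.08 and −0.11. The disease genes Mrps22 and Mrpl3 had −0.03 and 0.11, and −0.04 and −0.27.

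**Figure D3:**
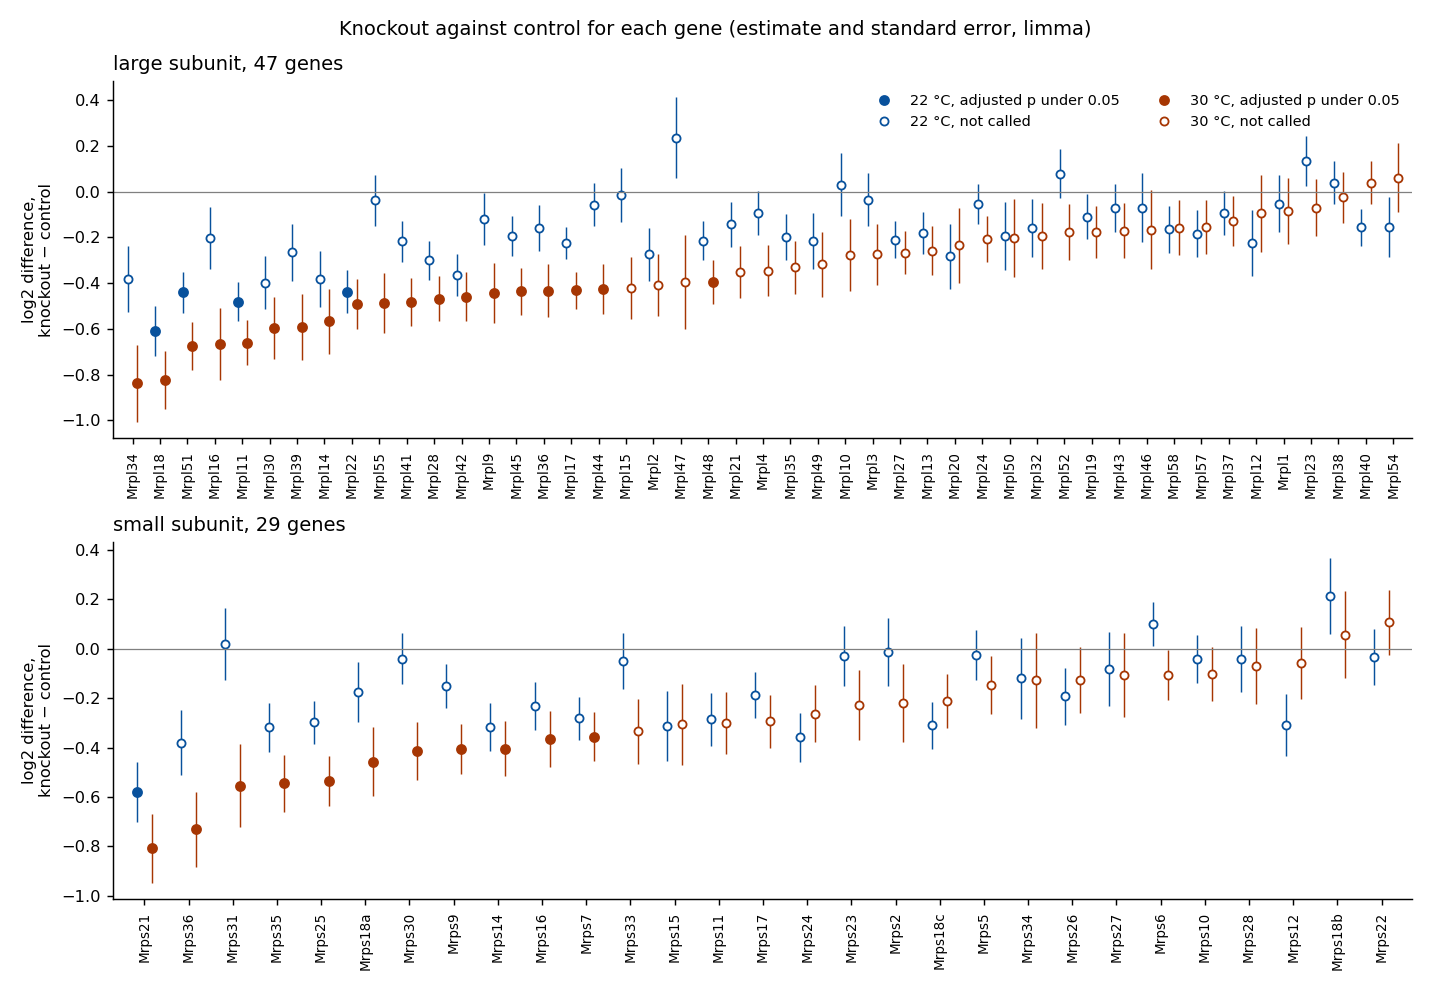
Log2 difference of knockout minus control for each gene at 22 °C (blue) and 30 °C (brown), with the standard error of the limma fit, ordered by the 30 °C value; filled points have an adjusted p under 0.05. The filled points, 5 at 22 °C and 30 at 30 °C, are all negative.

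Of the 30 genes called at 30 °C, 7 were also called under all 11 other settings tried and without each of the 6 animals in turn: Mrpl11, Mrpl18, Mrpl34, Mrpl51, Mrps21, Mrps25 and Mrps36. The count itself moved. It was 13 without control 2 or knockout 1, 19 without control 1, and at most 24 without any 1 animal. It was 35 with quantile normalization, 15 with the same total and 7 on the deposited scale, where Mrpl40 and Mrps22 were called higher. Over all 13079 genes tested, 935, 409 and 291 were called lower under these scalings. As deposited, 4280 of all genes were called higher. The median member relative to the median of all genes was −0.38 (median ratio), −0.30 (quantile), −0.35 (same total) and −0.33 (as deposited).

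The nuclear complex I genes had medians of −0.35 at 22 °C (6 of 36 called lower) and −0.61 at 30 °C (31 of 36). These counts were 2 and 14 on the deposited scale, 1 and 17 with quantile normalization and 2 and 21 with the same total. The cytosolic ribosomal proteins had medians of −0.09 (0 of 81 called) and −0.12 (4 of 81 called lower), and these turned positive under each of the other 3 scalings. Relative to the median of all genes, the median of complex I was negative under all 4 scalings at both temperatures. With quantile normalization at 22 °C it was −0.14, beside −0.15 for the members. Whether the families differ from the members was not tested.

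The knockout effects at the 2 temperatures were compared directly. Their difference, 22 °C minus 30 °C, was positive for 64 of 76, with medians of 0.18 and 0.12 for the large and small subunit beside −0.05 over all genes. It was called for 0 members and for 0.0% of all genes in either direction; the lowest adjusted p among members was 0.294 (limma). At an unadjusted p under 0.05 there were 7 members (9.21%), beside 13.0% of all genes, and voom on read numbers called 0 as well. A difference between the temperatures was therefore not shown for any member.

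**Figure D4:**
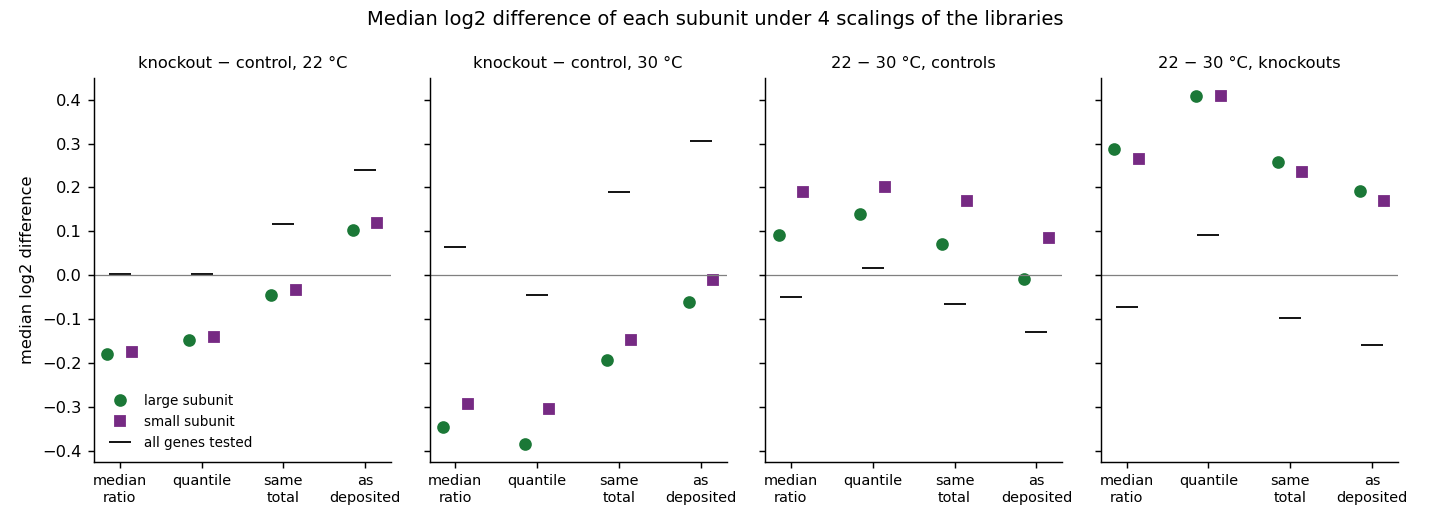
Median log2 difference of the large subunit (circles), the small subunit (squares) and all genes tested (bars) in 4 comparisons, each under 4 scalings of the libraries. In both knockout comparisons both subunits lie below the bar of all genes under every scaling; at 22 °C the large subunit lies at −0.18 with the median ratio and at 0.10 as deposited.

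The 22 °C animals were also compared with the 30 °C animals within each genotype. Xist was at 0 to 0.0141 FPKM in all 8 animals at 22 °C and at 9.01 to 18.4 in all 6 at 30 °C, and the Y-linked Ddx3y at 14.5 to 23.1 and 0 to 0.0244. These sex-linked genes thus split the animals completely by temperature. Temperature and sex-linked expression cannot be told apart in these animals. This limit holds for every comparison between the temperatures, the subunit ratio and the difference of the knockout effects included.

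In controls 19 members were called higher at 22 °C (9 large, 10 small) and 5 lower, beside 18.2% and 20.6% of all genes. The medians were 0.09 for the large and 0.19 for the small subunit, and −0.05 over all genes. The large subunit median was 0.034 without 22 °C control 1 and 0.14 without 30 °C control 2. In knockouts 38 were called higher (25 large, 13 small) and 2 lower, beside 21.8% and 29.4% of all genes, with medians of 0.29 and 0.26 and −0.07 over all genes. The same 17 genes were called higher in both genotypes, and the matching share of all genes is not given here. On the deposited scale the split was 7 higher and 9 lower in controls and 30 higher and 7 lower in knockouts. Over all genes it was 1738 higher and 3200 lower in controls and 2289 higher and 4402 lower in knockouts. Brown adipocyte markers were called higher at 22 °C in both genotypes (6 and 7 of 8), and macrophage markers lower (4 and 8 of 8). Fibroblast markers (1 and 4 of 4) and lymphocyte markers (2 and 3 of 3 tested) were called lower too. Of the muscle and endothelium markers 0 were called in either genotype, with a muscle median of −2.05 in knockouts. The part of these cells was not tested.

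Mrpl50 led both comparisons. It was at 46.9, 42.3, 36.2 and 28.8 scaled FPKM in the 22 °C controls and at 19.7, 19.8 and 17.9 in the 30 °C controls, and at 27.3 to 40.8 and 15.2 to 17.9 in the knockouts. The groups did not overlap, and the log2 differences were 0.95 (SE 0.16, limma adjusted p = 0.00109) and 0.96 (SE 0.16, limma adjusted p = 0.000416). Mrpl20, known from bacteria as an early assembly protein, was at 79.1 to 109.8 and 46.2 to 57.2 in controls and at 71.9 to 93.5 and 35.2 to 52.0 in knockouts. Its differences were 0.91 (limma adjusted p = 0.00114) and 0.87 (limma adjusted p = 0.000657). Mrps33 had 0.62 and 0.91, Mrpl32, whose maturation by a protease is tied to ribosome assembly, 0.59 and 0.63, and the disease gene Mrps22 0.59 and 0.45; all 6 values passed the test.

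Mrpl1 (0.44 and 0.47) was called higher in both genotypes. In controls Mrpl23 (−0.44), Mrpl4 (−0.41), Mrpl52 (−0.41), Mrpl28 (−0.32) and Mrps6 (−0.32) were called lower. In knockouts Mrpl47 (0.94), Mrps36 (0.77), Mrpl16 (0.76), Mrps31 (0.72) and Mrps30 (0.68) were among the highest. Called lower there were Mrps12 (−0.52, limma adjusted p = 0.00684) and Mrpl12 (−0.41, limma adjusted p = 0.0438), the decoding-site protein and the stalk protein. Mrps12 was at 34.5 to 48.8 scaled FPKM in 22 °C knockouts and at 51.4 to 66.7 in 30 °C knockouts, without overlap. Mrpl12 was at 28.5 to 39.7 and 37.9 to 52.3, and its groups overlapped.

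The temperature differences followed the GC content of the transcripts. Across the 76 members Spearman's rho between GC content and the log2 difference was −0.51 in controls and −0.57 in knockouts; across all genes with a GC value it was −0.58 and −0.49. These are descriptions across genes measured in the same libraries. In the knockout comparisons rho was 0.00 at 22 °C and 0.20 at 30 °C over the members. With a correction for GC content the counts were 16 higher and 3 lower in controls and 39 higher and 1 lower in knockouts. Mrpl50 (0.63 and 0.70) and Mrpl20 (0.88 and 0.82) were still called, while Mrps12 and Mrpl12 in knockouts (−0.05 and 0.03) and Mrpl23 and Mrpl4 in controls (−0.20 and −0.06) were not. Mrpl28 in controls turned from −0.32 to 0.16 with that correction.

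**Figure D5:**
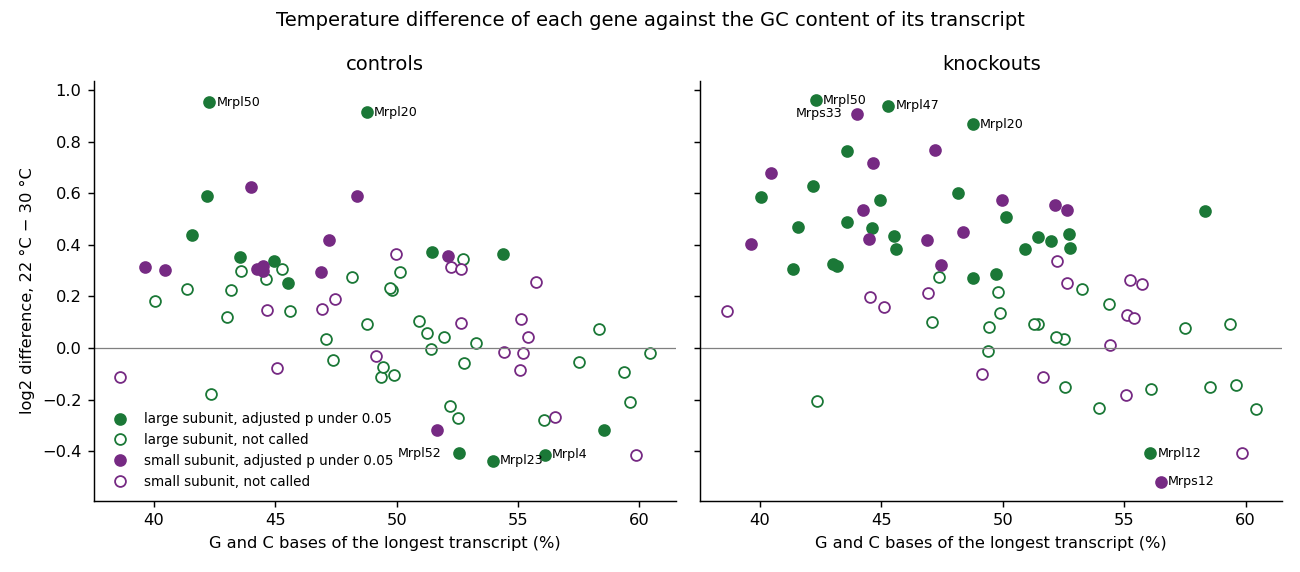
Log2 difference of 22 °C minus 30 °C for each of the 76 genes against the share of G and C bases in its longest transcript, in controls (left) and knockouts (right); filled points have an adjusted p under 0.05 (limma). Genes with GC-poor transcripts tend to lie higher in both panels, and the genes called lower lie in the GC-richer part.

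Other genes of the mitochondrial ribosome were looked at in lists. Ribosomal proteins without an Mrp symbol, Dap3, Ptcd3, Chchd1 and Aurkaip1 of the small subunit and Gadd45gip1 of the large, were called in neither knockout comparison (0 of 5 each). Their medians were −0.19 and −0.25, with Gadd45gip1 at 0.02 and 0.40 against the direction of the rest. Under other scalings there were calls at 30 °C. As deposited and with the same total 1 of the 5 was called higher, and with quantile normalization 1 was called lower. Of all 13079 genes, 4280 and 2225 were called higher and 935 lower in the same way. By temperature Ptcd3 was higher at 22 °C (0.67 and 0.86) and Gadd45gip1 lower (−0.57 and −0.94) in controls and knockouts, and all 4 values passed the test. The scaled FPKM of Gadd45gip1 was 3.40 to 5.43 in 22 °C controls and 6.18 to 7.94 in 30 °C controls.

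Of 27 genes for assembly and ribosomal RNA modification, 1 was called lower at 22 °C, the rRNA methyltransferase Mrm2 (−0.43, limma adjusted p = 0.0155), and 3 at 30 °C: Rbfa (−0.43), Mtg1 (−0.38) and Ngrn (−0.34). The medians were 0.01 and −0.07, beside 0.00 and 0.06 over all genes. The calls turned on the deposited scale to 11 higher and 0 lower at 22 °C and 5 higher and 0 lower at 30 °C, and with the same total to 1 higher and 0 lower at each temperature. Of all 13079 genes, 3167 were called higher at 22 °C and 4280 at 30 °C as deposited. With the same total 386 and 2225 were called higher. On the median-ratio scale 1.06% of all genes were called lower at 22 °C and 5.28% at 30 °C. Of 13 translation factors 0 were called at 22 °C and 2 lower at 30 °C. They were Tufm (−0.63, limma adjusted p = 0.00977), the elongation factor that brings tRNAs, and Oxa1l (−0.53, limma adjusted p = 0.00500), the insertase at the tunnel exit. The medians were −0.02 and −0.28. On the deposited scale they were 0.25 and 0.0050, with 1 factor called higher and 0 lower at 30 °C. With the same total and with quantile normalization 2 factors were called lower at 30 °C (medians −0.13 and −0.37). By temperature 9 of the 13 were called higher at 22 °C in knockouts and 1 lower, Mtfmt (−0.32), and in controls 2 higher and 0 lower. Over all genes 21.8% were called higher and 29.4% lower in knockouts, and 18.2% and 20.6% in controls.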

How the data were processed

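RNA of homogenized brown adipose tissue was sequenced in 14 mice. The authors deposited 1 table of FPKM values per gene and animal, with Ensembl identifiers; per the submitters' processing notes the genome build was mm9. The aligner, the counter, the annotation and the use of strand are not given in the sources used here. Symbols, GC content and overlaps came from GENCODE M21 (34490 of 35275 identifiers matched). The members and gene lists were chosen with earlier results of these data known. Depth and whole read numbers were inferred from the spacing of small FPKM values; 83.6% of 3303 genes with 1 transcript gave the same depth.

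Genes with at least 1 FPKM in at least 3 libraries were kept (13079). Libraries were scaled by the median ratio, log2(scaled FPKM + 1) was fitted with limma 3.58.1 (R 4.3.3, trend) to the 4 groups, and each comparison was adjusted across all genes (Benjamini-Hochberg), with a call at an adjusted p under 0.05. Fold changes on this scale understate those of weak genes. No p-value is given for a list. Scripts were tested on simulated data. Named genes were the called members with the largest differences (up to 4 per subunit and direction), the 5 highest and 5 lowest by level per subunit, members with set roles, those without overlap in both knockout comparisons, and the proteins without an Mrp symbol; Lrpprc checked the labels. Alternatives covered the scaling, the pseudocount (0.1), the filter, sample weights, fits to the compared groups, GC content, and leaving out animals, among them the 2 controls at 22 °C whose identifiers begin with R. Chosen after the data were seen were voom on read numbers and moving Mrps18a, Mrps30 and Mrps36 by their place in structures. Plots used Python 3.11.15 and matplotlib 3.10.9. Read numbers cover counting error only. The animals have individual identifiers and no pairing.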

Additional observations from a re-analysis of the deposited data

Results flagged for a closer look

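In 8 of the 126 groups of 4 animals tested, 1 animal stood apart from the others by Dixon's criterion (gap to the nearest over the whole range, at the 95% level); chance gives about 5% of groups. In scaled FPKM, Mrpl1 was at 6.36 in 22 °C knockout 3 (others 8.25 to 8.64), Mrpl19 at 7.03 in 22 °C control 1 (6.25 to 6.35) and Mrpl24 at 39.4 in 22 °C control 4 (43.4 to 43.6). Mrps18b was at 9.36 in 22 °C control 4 (14.7 to 15.1). In 22 °C knockout 1, Mrpl20 was at 93.5 (71.9 to 74.3), Mrpl58 at 16.4 (12.7 to 13.1) and Mrps35 at 14.2 (12.9 to 13.1). The members' share of the cytosolic ribosomal protein sum was 16.3% in 22 °C knockout 2 (others 17.5 to 17.8%).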

How the results depend on the processing

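The direction of the knockout medians at 22 °C depended on the scaling. On the deposited scale the medians of the large and small subunit were 0.10 and 0.12 at 22 °C and −0.062 and −0.011 at 30 °C, with 6 members called higher and 1 lower at 22 °C and 2 and 7 at 30 °C. With the same total they were −0.046 and −0.035, and −0.19 and −0.15, with 3 and 15 called lower. Over all 13079 genes, 3167 were called higher and 81 lower at 22 °C as deposited, and 4280 and 291 at 30 °C. With the same total 75 and 409 of all genes were called lower. Sample weights gave 16 lower at 22 °C, and a fit to the compared groups 0. With sample weights 503 of all 13079 genes were called lower there, and 139 in the main fit. Leaving out 1 animal gave 0 to 7 lower at 22 °C and 13 to 24 at 30 °C.

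By temperature, controls had 7 higher and 9 lower on the deposited scale (medians −0.0092 and 0.084), 30 and 9 with sample weights, 10 higher in a fit to the compared groups, 3 lower with the GC correction, and 7 to 20 higher and 1 to 6 lower without 1 animal. The number higher in controls was 7 without 30 °C control 3, 8 without 30 °C control 1 or 22 °C control 1, and 10 without 22 °C control 2; the number lower was 1 without 30 °C control 2. Knockouts had 7 lower on the deposited scale (medians 0.19 and 0.17), 1 with quantile normalization (medians 0.41 and 0.41), no filter, the compared groups or the GC correction, 8 with sample weights, and 1 to 4 without 1 animal (4 without 22 °C knockout 3, 1 without 22 °C knockout 2 or 4 or 30 °C knockout 3). Their small subunit median was 0.23 to 0.36 without 1 animal. With the GC correction these changed sign: in controls Mrpl14 (0.42), Mrpl2 (0.37), Mrpl28 (0.16), Mrps14 (−0.086) and Mrps30 (−0.077), and in knockouts Mrpl12 (0.027) and Mrpl28 (0.47). The difference of the knockout effects had medians of 0.26 and 0.22 with quantile normalization.

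By place in structures the ratio of small to large subunit was 0.428, 0.421, 0.403 and 0.424 (22 °C controls and knockouts, 30 °C controls and knockouts). With a pseudocount of 0.1 the log2 difference of the subunits in 30 °C controls was −0.38. Counting error, 3.24% at the median, was below the spread between animals for most genes. The cause of these changes was not tested.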
